A study of Rattus norvegicus with 18 samples.

Results

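The lysosomal cathepsins and legumain were followed through rat colitis with 13 probe sets that the platform annotation assigned to exactly 1 gene symbol among Ctsb, Ctsc, Ctsd, Ctse, Ctsh, Ctsk, Ctsl, Ctss, Ctsz and Lgmn. All 10 genes were measured, out of 14217 genes with a single-symbol probe set and 31042 probe sets tested. Ctsc, Ctsl and Lgmn had 2 probe sets each and the other 7 genes had 1. Unless stated otherwise, a gene's values are those of its brightest probe set (by the mean of all 18 arrays).

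Colitis was induced on day 0 by 1 enema of 10 mg trinitrobenzene sulfonic acid (TNBS), a hapten given in 50% ethanol, and full-thickness colon was taken on day 2, 5, 7 or 14 from 3 rats each. The comparison group was 6 healthy rats given a saline enema, so the groups differ in the ethanol as well as in TNBS. Rats were chosen for the arrays on myeloperoxidase activity, body weight loss and the weight to length ratio of the colon, so the TNBS rats are not a random draw of treated animals. The labels used here give no strain, sex or age, and each array was taken as 1 rat.

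Cathepsins are proteases that work mostly in the acid interior of lysosomes, where they degrade endocytosed and phagocytosed protein. Most are cysteine proteases of the papain family, cathepsins D and E are aspartic proteases, and legumain, a cysteine protease of another family that cuts after asparagine, processes several cathepsins from their single-chain to their 2-chain form. In bowel wall they are made by macrophages and other phagocytes, and also by epithelial, stromal and other cells.

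The values are log2 signals. As deposited, the TNBS arrays had medians of 5.03 to 5.07 and the control arrays 4.27 to 4.30, and the median probe set differed from control by 0.59, 0.57, 0.54 and 0.58 log2 on days 2, 5, 7 and 14. In the labels, the extraction field holds Trizol for TNBS samples but a technical manual for controls; the part of extraction in the offset was not tested. Levels, and differences from control, therefore come from quantile-normalised arrays. A rise or fall from control is stated only where limma passed it in 1 direction on both scales, quantile-normalised and deposited, at a Benjamini-Hochberg adjusted p under 0.05. With the deposited offset this condition leaves little room for falls. For rises the deposited scale removed no call. After quantile normalization alone, 1618, 2086, 2084 and 910 of all genes passed as higher on days 2, 5, 7 and 14. The numbers on both scales together were the same, so a stated rise rests on the quantile-normalised values. Differences between TNBS days use the deposited values. All 15 colon epithelial markers and 9 or 10 of 10 smooth muscle markers lay above the array's median in every array, as the tissue label says. Day 2 replicate 1 correlated more closely with the day 14 arrays (mean r 0.987) than with the other day 2 arrays (mean r 0.970).

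Legumain and cathepsin Z had the largest rises by the brightest probe set of each gene, and they rose on each of days 2, 5 and 7. Across the 10 genes, 4 rose against control on day 2 (Lgmn, Ctsz, Ctsd and Ctsk), 6 on day 5 (the same 4 with Ctsl and Ctsc) and 7 on day 7 (those 6 with Ctsh). Without day 2 replicate 1, 6 rose on day 2, with Ctsc and Ctsl added. Over all genes, 11.4% were called higher on day 2, 14.7% on day 5 and 14.7% on day 7. The median change of the 10 genes was 0.56, 0.80 and 0.92 log2 on days 2, 5 and 7, against -0.01, -0.02 and -0.06 for all genes. On day 14 limma called 0 of the 10, and 6.40% of all genes were called higher. At an unadjusted p under 0.05 there were 4 on day 14, with Lgmn, Ctsd and Ctsk above control and Ctsb below it. The share of all genes at that unadjusted threshold was not counted, here or for the unadjusted counts that follow. After quantile normalization alone, limma passed 6.40% of all genes as higher and 6.37% as lower on day 14, at an adjusted p under 0.05. The median change on that day was 0.15 log2, against -0.02 for all genes. None of the 10 was called lower than control on any day by this rule, while 0.724%, 1.43%, 1.53% and 0.176% of all genes were on days 2, 5, 7 and 14. With arrays only centred on their medians, limma passed Ctsb as lower on all 4 days (-0.78 to -0.42 log2, adjusted p 2.19e-05 to 8.46e-04), Ctss as lower on all 4 (-0.67 to -0.43, adjusted p 0.00389 to 0.0352) and Ctsh as lower on day 14 (-0.36, adjusted p = 0.0329). On that scale 27.2% to 28.7% of all calls were higher, against 43.9% to 51.5% after quantile normalization and 98.0% to 99.8% as deposited, and the median of all genes was -0.21 to -0.13 log2. Ctsb and Ctss were the brightest of the 10 genes in control (means 12.03 and 10.98), and the deposited offset was smaller among bright probe sets. The 99th percentile of an array was 11.04 to 11.28 in TNBS arrays and 10.89 to 10.94 in control arrays. The part of this uneven offset in the falls seen with median centring was not tested. After quantile normalization, Ctsb was the one gene below control at an unadjusted p under 0.05, on days 2, 5 and 14. Homogenised colon cannot tell more cells of a type from more RNA per cell, nor fewer from less.

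**Figure D1:**
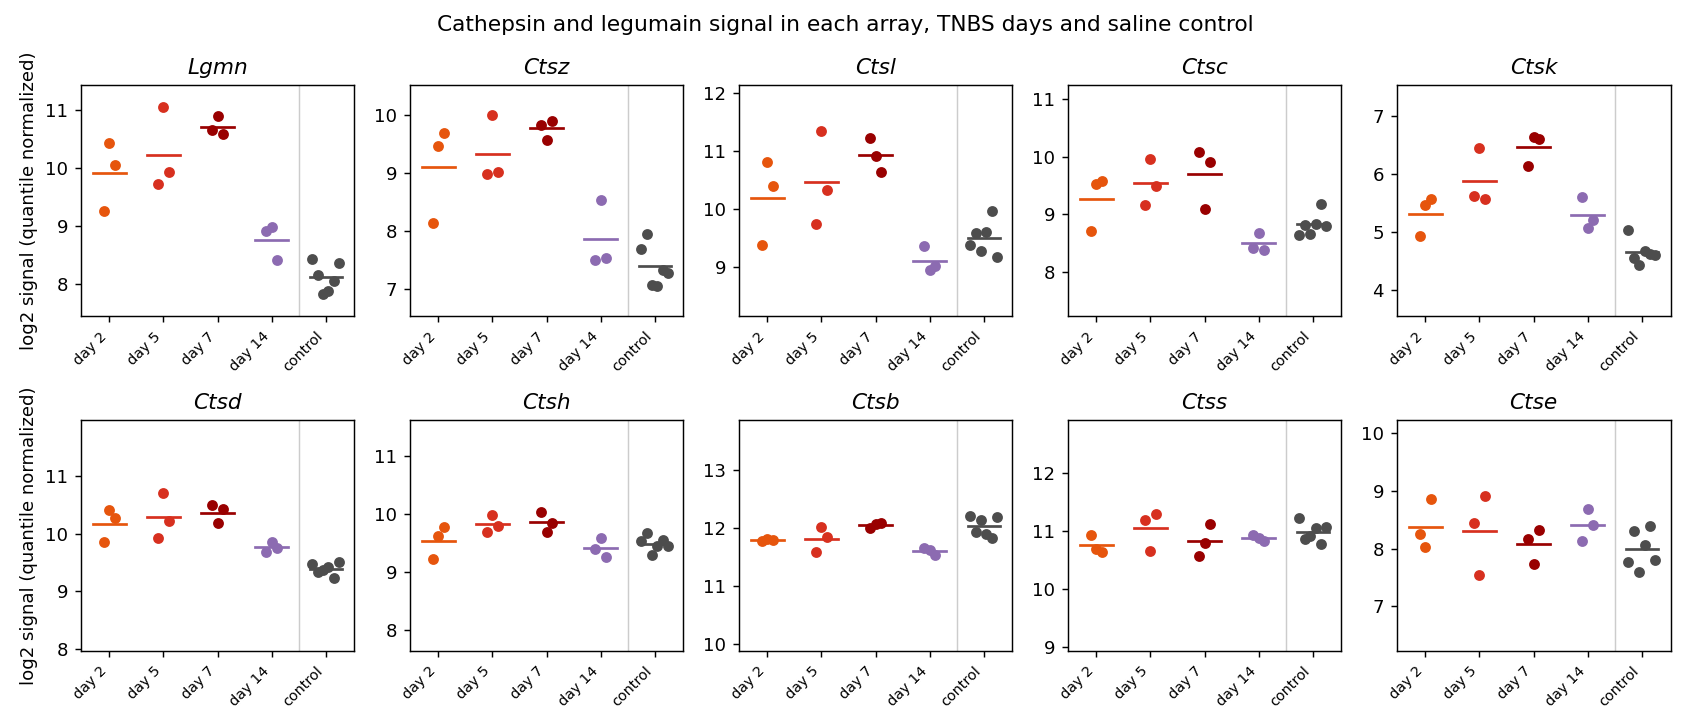
Quantile-normalised log2 signal of the representative probe set of each gene (vertical axes, each spanning 4 log2 units) in each array of TNBS days 2, 5, 7 and 14 and of saline control, with points for rats and lines for group means. Lgmn and Ctsz stand above every control array on days 2, 5 and 7, whereas the Ctss and Ctse arrays of every day overlap the control arrays.

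Legumain (Lgmn, chromosome 6) had the largest rise among the brightest probe sets. The Lgmn signal was 9.25, 10.43 and 10.04 in the day 2 arrays, 9.71, 11.05 and 9.93 in the day 5 arrays, 10.65, 10.90 and 10.58 in the day 7 arrays and 8.90, 8.97 and 8.40 in the day 14 arrays. In control arrays it ranged from 7.82 to 8.43 with a median of 8.10. Every array of days 2, 5 and 7 was above every control array, and 1 of the day 14 arrays fell within the control range. The day 7 rats were the most alike, at 10.71 ± 0.17 (SD, n = 3), against 8.11 ± 0.25 in control (SD, n = 6). Lgmn was 3.47-fold higher than control on day 2 (limma, adjusted p = 4.55e-04), 4.35-fold on day 5 (adjusted p = 7.58e-05) and 6.08-fold on day 7 (adjusted p = 1.09e-05). On day 14 the difference was 0.65 ± 0.27 log2 (SE) and was not called, with an adjusted p of 0.140.

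Its second probe set, 1380609_at, was dim, between 3.46 and 3.80 in TNBS arrays and between 3.38 and 3.71 in control arrays. Its differences from control were 0.04, 0.15, 0.13 and 0.12 log2 on days 2, 5, 7 and 14, each with an SE of 0.09, and none was called (limma, adjusted p between 0.251 and 0.814).

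The start of Lgmn is shown because Lgmn had the largest change among the brightest probe sets. Sequences here are RefSeq promoters of build GRCr8, which were found for 9 of the 10 genes. Each window runs from 250 bases before to 50 after the start that the promoter table uses, and positions are counted from that start. It is the annotated gene start for Ctsd and Ctsk but lies 27 bases downstream of it for Lgmn and 80 for Ctss. The Lgmn window is chr6:127347279-127347578 on the minus strand, and capitals mark the GC box of Sp1 factors (GGGCGG or its reverse complement), which 33.1% of 33469 rat promoters hold.
Lgmn promoter: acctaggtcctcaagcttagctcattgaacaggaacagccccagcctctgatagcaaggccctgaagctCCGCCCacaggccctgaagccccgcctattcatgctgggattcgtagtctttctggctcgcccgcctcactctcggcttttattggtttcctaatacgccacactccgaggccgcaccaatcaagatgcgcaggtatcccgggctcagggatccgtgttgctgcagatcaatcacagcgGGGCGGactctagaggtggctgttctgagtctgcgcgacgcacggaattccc
The box starts at -181 and -2 in the Lgmn window. It was also found in the windows of Ctsc, Ctsd, Ctsh, Ctsl and Ctsz, so 6 of 9 held it. The AP-1 element (TGANTCA) and the gamma-activated sequence (TTCNNNGAA), on either strand, were found in 7.33% and 8.87% of all promoters and in 0 of the 9. These are matches of letters in a short window.

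Cathepsin Z (Ctsz, chromosome 3), a carboxypeptidase that trims single residues from the carboxyl end of proteins, was also called on each of days 2, 5 and 7. The Ctsz signal was 8.14, 9.47 and 9.69 in the day 2 arrays, 8.98, 10.00 and 9.02 in the day 5 arrays, 9.83, 9.57 and 9.91 in the day 7 arrays and 7.50, 8.54 and 7.53 in the day 14 arrays, against 7.05 to 7.94 with a median of 7.31 in control. All arrays of days 2, 5 and 7 lay above the control range, although day 2 replicate 1 did so narrowly, and the day 14 arrays overlapped it. Ctsz was 3.26-fold higher than control on day 2 (limma, adjusted p = 0.00258), 3.83-fold on day 5 and 5.19-fold on day 7 (adjusted p = 1.19e-04). The day 14 difference of 0.46 ± 0.33 log2 was not called (adjusted p = 0.411).

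Cathepsin C (Ctsc, chromosome 1), also called dipeptidyl peptidase 1, removes dipeptides from the amino end and activates the granule serine proteases of neutrophils, mast cells and cytotoxic lymphocytes. Its 2 probe sets gave different sizes. On 1374778_at, the brighter one, the signal was 8.71, 9.53 and 9.58 in the day 2 arrays, 9.17, 9.96 and 9.49 in the day 5 arrays, 10.08, 9.10 and 9.91 in the day 7 arrays and 8.42, 8.69 and 8.39 in the day 14 arrays. Control arrays ranged from 8.65 to 9.19 with a median of 8.81. At least 1 array of each day lay inside the control range or below it. This probe set was called higher on day 5 (0.71 ± 0.23 log2, adjusted p = 0.0306) and day 7 (0.87 ± 0.23, adjusted p = 0.00973). The day 5 call was lost without control replicate 1 or 3 or day 5 replicate 2 or 3 (adjusted p 0.0521 to 0.188) and with median centring (0.40 log2, adjusted p = 0.151). The day 7 call was lost without day 7 replicate 1 or 3 (0.0551 to 0.0734).

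On the other probe set, 1368280_at, Ctsc was higher on all 4 days and no array overlapped control. The signal was 8.89, 9.82 and 9.75 in the day 2 arrays, 9.36, 9.98 and 9.64 in the day 5 arrays, 10.09, 9.04 and 9.57 in the day 7 arrays and 8.33, 9.04 and 8.55 in the day 14 arrays, against 7.13 to 7.69 with a median of 7.29 in control. The rise was 4.49-fold on day 2, 5.06-fold on day 5, 4.75-fold on day 7 and still 2.49-fold on day 14 (limma, adjusted p between 1.16e-05 and 0.00233). Within an array, the difference between the 2 probe sets (1368280_at minus 1374778_at) was 0.22 ± 0.06 log2 on day 2, 0.12 ± 0.09 on day 5, -0.13 ± 0.18 on day 7 and 0.14 ± 0.22 on day 14 (SD, n = 3 each), against -1.51 ± 0.04 in control (SD, n = 6). The control arrays thus did not overlap any day in this difference. The exact two-sided permutation p was 0.0238 on each day, the smallest that 3 arrays against 6 can give, and 0.0357 after adjustment over the 12 such tests of the 3 genes with 2 probe sets. What the 2 probe sets read differently was not tested.

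**Figure D2:**
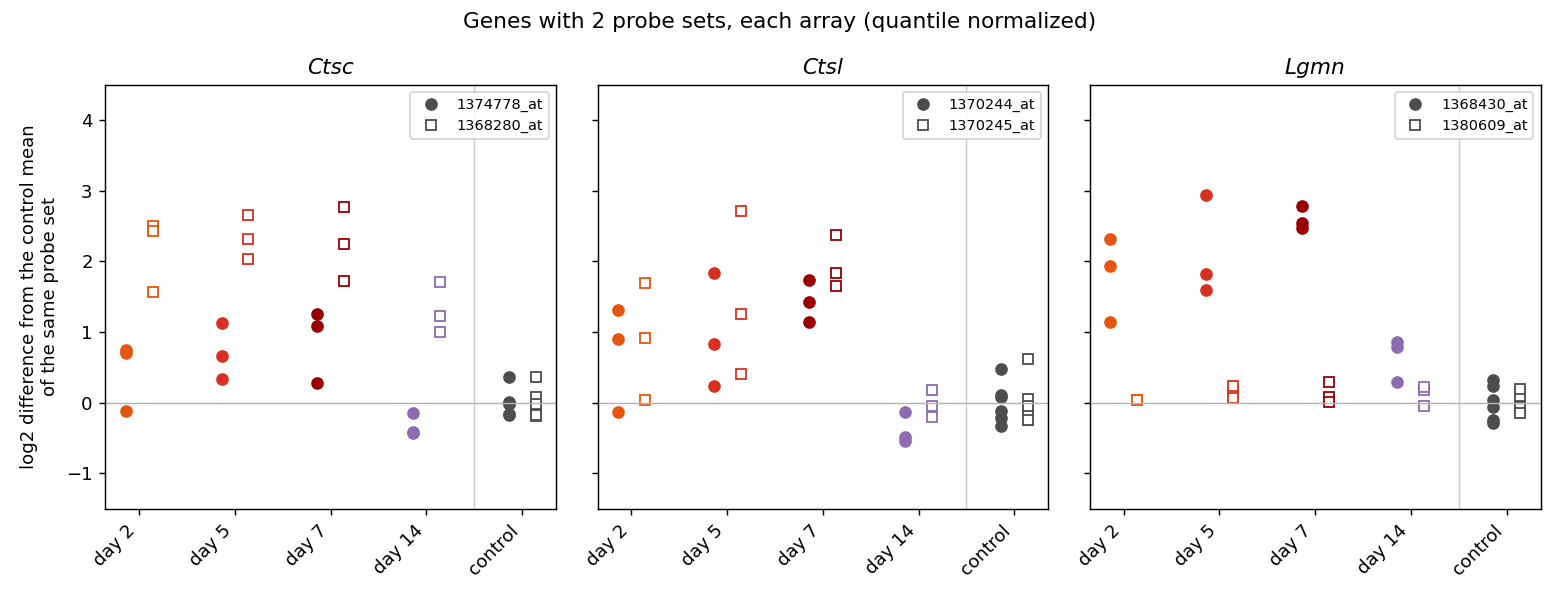
Quantile-normalised log2 signal of both probe sets of Ctsc, Ctsl and Lgmn in each array, as the difference from that probe set's own control mean (vertical axis), for TNBS days 2, 5, 7 and 14 and saline control. For Ctsc the open squares (1368280_at) stay above control on day 14, where the filled circles (1374778_at) do not.

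Cathepsin H (Ctsh, chromosome 8), an aminopeptidase, was called on day 7 and on no other day. The Ctsh signal was 9.22 to 9.77 in the day 2 arrays, 9.70 to 9.98 in the day 5 arrays, 9.69 to 10.04 in the day 7 arrays and 9.26 to 9.58 in the day 14 arrays, against 9.29 to 9.67 in control. The day 5 and day 7 arrays all lay just above the control range. The day 7 rise of 0.37 ± 0.12 log2 (1.29-fold) was called (limma, adjusted p = 0.0344), and the day 5 value of 0.33 ± 0.12 was not (adjusted p = 0.0538). The day 7 call was lost without day 7 replicate 1 or 3 or control replicate 3, 4 or 6 (adjusted p 0.0557 to 0.179), and the difference was 0.01 log2 when arrays were only centred on their medians.

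Cathepsin L (Ctsl, chromosome 17), an endopeptidase of broad specificity, rose on days 5 and 7. The Ctsl signal was 9.37, 10.82 and 10.41 in the day 2 arrays, 9.74, 11.34 and 10.34 in the day 5 arrays, 11.24, 10.92 and 10.64 in the day 7 arrays and 9.36, 8.95 and 9.01 in the day 14 arrays. In control arrays it ranged from 9.17 to 9.97 with a median of 9.48. Replicate 1 of day 2 and of day 5 lay inside the control range, whereas all 3 day 7 arrays were above it. The change was 0.97 ± 0.32 log2 on day 5 (limma, adjusted p = 0.0322) and 1.43 ± 0.32, or 2.70-fold, on day 7 (adjusted p = 0.00328). On day 2 it was 0.70 ± 0.32 (adjusted p = 0.136) and on day 14 -0.39 ± 0.32 (adjusted p = 0.471), neither of them called. The day 5 call was lost without control replicate 1, 3 or 6 or day 5 replicate 2 or 3 (adjusted p 0.0506 to 0.247), and with median centring (0.55 log2, adjusted p = 0.136). The second probe set, 1370245_at, was called on the same days, at 1.46 and 1.96 log2 on days 5 and 7.

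Cathepsin K (Ctsk, chromosome 2), known as the collagenase of osteoclasts and also made by activated fibroblasts and macrophages, was called on each of days 2, 5 and 7. The Ctsk signal was 4.93, 5.47 and 5.56 in the day 2 arrays, 5.63, 6.45 and 5.57 in the day 5 arrays, 6.14, 6.65 and 6.62 in the day 7 arrays and 5.61, 5.07 and 5.21 in the day 14 arrays, against 4.44 to 5.04 with a median of 4.61 in control. Apart from day 2 replicate 1, every TNBS array was above every control array. The difference from control was 0.67 ± 0.20 log2 on day 2 (limma, adjusted p = 0.0316), 1.23 on day 5 and 1.82, or 3.52-fold, on day 7 (adjusted p = 1.79e-05). On day 14 it was 0.64 ± 0.20 with no overlap of the arrays, and was not called (adjusted p = 0.0516). Without control replicate 1 it was called on day 14 (0.72 log2, adjusted p = 0.0328). The day 2 call was lost without control replicate 2, 3 or 6 or day 2 replicate 2 or 3 (adjusted p 0.0510 to 0.158).

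Cathepsin S (Ctss), an endopeptidase that stays active at neutral pH and cleaves the class II invariant chain in antigen-presenting cells, is the neighbour of Ctsk on chromosome 2. The Ctss signal was 10.93, 10.69 and 10.64 in the day 2 arrays, 11.20, 10.65 and 11.29 in the day 5 arrays, 10.56, 10.80 and 11.12 in the day 7 arrays and 10.93, 10.88 and 10.84 in the day 14 arrays, against 10.78 to 11.22 with a median of 10.99 in control. The arrays of every day overlapped the control arrays. The differences were -0.22, 0.06, -0.16 and -0.10 log2 on days 2, 5, 7 and 14, each with an SE of 0.14, and none was called (limma, adjusted p between 0.298 and 0.793). As deposited, the differences on days 2, 7 and 14 were above 0 instead. With median centring they were -0.67, -0.43, -0.60 and -0.52, and all 4 passed as lower (adjusted p 0.00389 to 0.0352).

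The genes of Ctsk (185747548 to 185758512) and Ctss (185775316 to 185803440) lie 16803 bases apart in GRCr8, with 1 gene, LOC134485802, between them. Within an array, Ctsk minus Ctss was higher than in control by 0.89 log2 on day 2, 1.17 on day 5, 1.97 on day 7 and 0.75 on day 14. No TNBS array overlapped control in this difference, and the exact two-sided permutation p was 0.0238 on each day, before and after adjustment over the 4 days. As deposited the same differences were 1.32, 1.64, 2.42 and 1.21. This permutation test was added after the data were seen and uses the arrays of the Ctsk calls, so it adds no support to them. The promoters of the pair are shown because these neighbours changed unequally. They lie at chr2:185747298-185747597 and chr2:185775146-185775445, both on the plus strand, and capitals mark the interferon-stimulated element and the PU.1 element (GAGGAAGT), on either strand.
Ctsk promoter: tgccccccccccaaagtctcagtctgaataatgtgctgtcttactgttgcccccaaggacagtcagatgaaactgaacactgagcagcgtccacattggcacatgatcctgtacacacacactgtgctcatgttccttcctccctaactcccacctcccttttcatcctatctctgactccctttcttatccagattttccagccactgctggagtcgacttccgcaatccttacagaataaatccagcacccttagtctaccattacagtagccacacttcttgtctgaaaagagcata
Ctss promoter: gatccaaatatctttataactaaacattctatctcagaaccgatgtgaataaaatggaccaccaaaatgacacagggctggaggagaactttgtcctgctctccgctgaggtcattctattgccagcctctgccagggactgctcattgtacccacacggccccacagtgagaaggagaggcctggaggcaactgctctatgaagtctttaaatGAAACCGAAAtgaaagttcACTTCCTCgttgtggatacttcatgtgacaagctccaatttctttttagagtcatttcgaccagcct
The Ctss window holds the interferon-stimulated element at -36 and the PU.1 element at -17 from the start the promoter table uses, and the Ctsk window holds none of the 6 motifs searched. PU.1 is a transcription factor of myeloid cells and B cells. The interferon-stimulated element is in 3.92% of all rat promoters and in 1 of the 9 windows (Ctss). The PU.1 element is in 2.42% of all promoters and in 3 of the 9, those of Ctsc, Ctse and Ctss.

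Cathepsin B (Ctsb, chromosome 15), a cysteine protease with both endopeptidase and dipeptidyl carboxypeptidase activity, was not called against control on any day. The Ctsb signal averaged 11.79 ± 0.02 on day 2, 11.82 ± 0.22 on day 5, 12.06 ± 0.05 on day 7 and 11.61 ± 0.06 on day 14 (SD, n = 3 each), against 12.03 ± 0.16 in control (SD, n = 6). All day 2 and day 14 arrays were below all control arrays. The day 14 difference of -0.42 ± 0.10 log2 passed after quantile normalization (limma, adjusted p = 0.0123) but not as deposited, so it was not called. The direction of Ctsb against control changed with the scale on days 2 and 5 as deposited, and on day 7 when arrays were only centred on their medians. On that last scale Ctsb passed as lower on all 4 days, at -0.64, -0.68, -0.42 and -0.78 log2.

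Cathepsin D (Ctsd, chromosome 1), the main aspartic protease of lysosomes, rose on the first 3 days sampled. The Ctsd signal was 9.85, 10.41 and 10.27 in the day 2 arrays, 9.92, 10.70 and 10.21 in the day 5 arrays, 10.50, 10.18 and 10.42 in the day 7 arrays and 9.69, 9.86 and 9.75 in the day 14 arrays, against 9.24 to 9.50 with a median of 9.39 in control. All 12 TNBS arrays, those of day 14 included, were above all 6 control arrays. The rise was 1.72-fold on day 2 (limma, adjusted p = 0.00178), 1.85-fold on day 5 (adjusted p = 4.64e-04) and 1.97-fold on day 7 (adjusted p = 1.87e-04). The day 14 difference of 0.38 ± 0.15 log2 was not called (adjusted p = 0.108).

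The Ctsd promoter is shown because the E-box core CACGTG lies inside the element that TFEB, a regulator of lysosomal genes, is known to bind. It spans chr1:206968772-206969071 on the minus strand, and capitals mark the core.
Ctsd promoter: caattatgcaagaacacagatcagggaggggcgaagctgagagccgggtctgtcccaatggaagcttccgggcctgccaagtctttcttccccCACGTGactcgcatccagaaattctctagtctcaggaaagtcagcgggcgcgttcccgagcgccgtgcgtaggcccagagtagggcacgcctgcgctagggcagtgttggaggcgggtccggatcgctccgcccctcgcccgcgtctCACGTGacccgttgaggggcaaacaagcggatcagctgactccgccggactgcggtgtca
Sites start at -157 and -10 from the gene start. The core is in 6.42% of all rat promoters and in no other of the 9 windows.

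Cathepsin E (Ctse, chromosome 13), an aspartic protease found in endosomes and in gastrointestinal epithelium, was not called on any day. The Ctse signal was 8.02 to 8.86 in the day 2 arrays, 7.54 to 8.91 in the day 5 arrays, 7.74 to 8.33 in the day 7 arrays and 8.12 to 8.69 in the day 14 arrays, against 7.60 to 8.39 in control. The groups overlapped on every day. The differences of 0.39, 0.31, 0.09 and 0.42 log2, each with an SE of 0.27, were not called (limma, adjusted p between 0.339 and 0.844).

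**Figure D3:**
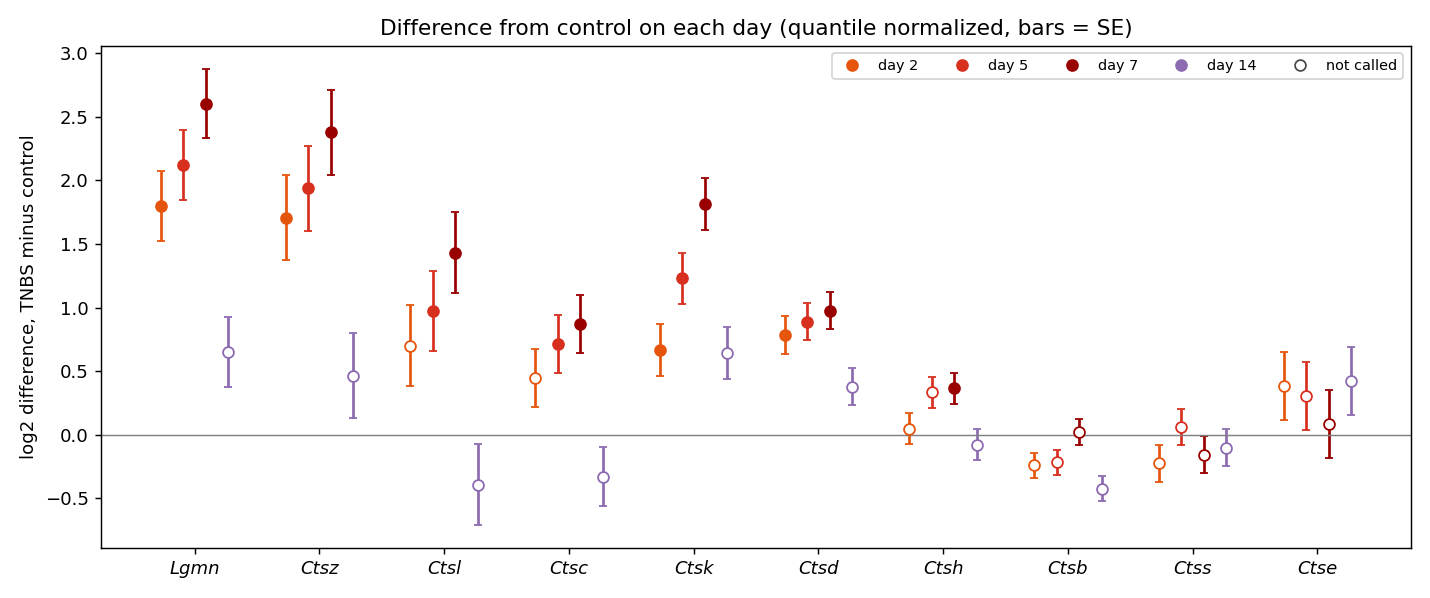
Log2 difference from saline control (vertical axis, quantile normalised) of each gene on days 2, 5, 7 and 14, with bars for the SE and open points where the gene was not called on both scales. Lgmn reaches 2.60 on day 7 and Ctsz 2.38, and every day 14 point is open.

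The day 14 colon was set against the day 7 colon with the values as deposited, which uses no control array in the difference. Of the 10 genes, 6 were lower on day 14 (Lgmn, Ctsz, Ctsl, Ctsk, Ctsc and Ctsb) and 0 were higher; over all genes, 4.28% were called lower and 2.08% higher. The median difference of the 10 was -0.82 log2, against 0.06 for all genes. At an unadjusted p under 0.05 Ctsd and Ctsh also passed, both lower, and no gene did so higher. No day 14 array overlapped a day 7 array in 8 of the 10 genes, which are the 6 called with Ctsd and Ctsh. The share of all genes without such overlap was not counted, so this adds no support to the calls.

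Lgmn averaged 8.97 ± 0.33 on day 14 and 10.82 ± 0.10 on day 7 as deposited (SD, n = 3 each), a difference of -1.85 ± 0.30 log2 (SE; limma, adjusted p = 0.00299). Ctsz differed by -1.77 ± 0.37 log2 (adjusted p = 0.0129). Ctsl differed by -1.72 ± 0.34 (adjusted p = 0.0106). Day 14 levels of Lgmn, Ctsz and Ctsl were 0.277, 0.293 and 0.303 of their day 7 levels, the 3 largest falls among the brightest probe sets. The second probe set of Ctsl was also called lower (-1.82 ± 0.43, adjusted p = 0.0250), while those of Ctsc (-0.84 ± 0.27, adjusted p = 0.0890) and Lgmn (-0.02 ± 0.12, adjusted p = 0.965) were not called. Ctsk differed by -1.15 ± 0.23 (adjusted p = 0.0104) and Ctsc by -1.10 ± 0.26 (adjusted p = 0.0241). Ctsb had the smallest called fall, -0.37 ± 0.10 (adjusted p = 0.0476), and that call was lost whichever of the 6 arrays was left out (adjusted p 0.0589 to 0.175) and in 10 of its 15 alternatives in all. The Ctsc call was lost in 7 of 15 alternatives, which include leaving out each of the 6 arrays except day 7 replicate 2 (adjusted p 0.0527 to 0.136). Among the genes not called, Ctsd differed by -0.53 ± 0.16 (adjusted p = 0.0705), Ctsh by -0.38 ± 0.14 (adjusted p = 0.154), Ctss by 0.06 ± 0.18 and Ctse by 0.38 ± 0.32. The count of 6 rests on few arrays: it was 2 without day 7 replicate 1 or day 14 replicate 3, and 3 without day 14 replicate 1 or 2. Ctsz lost its call without day 7 replicate 1 or day 14 replicate 1 or 3 (adjusted p 0.0563 to 0.0677), Ctsk without day 14 replicate 2 or 3 (0.0501 to 0.0502) and Ctsl without day 7 replicate 1 (0.0621). The fall of Lgmn was called whichever array was left out, with an adjusted p of at most 0.0220 over its 15 alternatives. Those alternatives all use its brightest probe set, and its other probe set was not called, as given above.

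**Figure D4:**
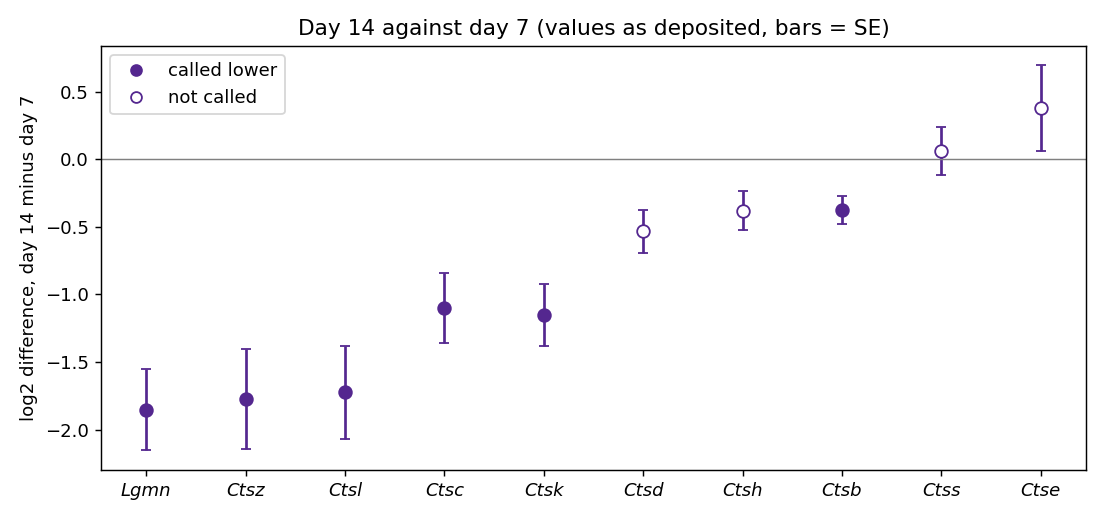
Log2 difference of day 14 minus day 7 (vertical axis, values as deposited) for each gene, with bars for the SE. Lgmn, Ctsz and Ctsl sit between -1.85 and -1.72, and Ctss and Ctse are above 0 and not called.

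No step between the first 3 days passed the test for any of the genes. Between day 5 and day 2, and between day 7 and day 5, limma called 0 of the 10 genes, and 0.0141% of all genes in each comparison. At an unadjusted p under 0.05 there was 1 gene in the first (Ctsk) and 2 in the second (Ctsb and Ctsk). Ctsk differed by 0.57 ± 0.23 log2 on day 5 against day 2 (adjusted p = 0.453) and by 0.61 ± 0.23 on day 7 against day 5 (adjusted p = 0.683). The F test among the 4 TNBS days called 3 genes, Lgmn (adjusted p = 0.0154), Ctsk (0.0228) and Ctsl (0.0475), with 3.45% of all genes called. That count was 0 without day 14 replicate 3, 1 without day 7 replicate 3 or day 14 replicate 2, and 5 without day 2 replicate 1. It was also 0 when the 12 TNBS arrays were fitted alone.

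Across the 12 TNBS arrays, the 8 genes other than Ctss and Ctse had a Pearson r between 0.62 and 0.96 with one another. Lgmn followed Ctsl (r = 0.96) and Ctsz (0.93), and Ctsc followed Ctsd (0.96). Ctss had an r between -0.14 and -0.45 with each gene except Ctse (0.57), and Ctse had one between -0.10 and -0.53 with each gene except Ctss. These r describe 12 arrays that share 4 days and the marker levels given below, and are not tests.

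Over the same 12 arrays, the gene of 13973 most like each one was named by its r. For Lgmn it was Cd68, a glycoprotein of macrophage lysosomes (r = 0.987), then Pira2 (0.984). For Ctsz it was Tspo (0.976) and then S100a8 (0.967), a subunit of neutrophil calprotectin. For Ctsl it was Vim (0.987), the intermediate filament of mesenchymal cells and leukocytes, and then Axl (0.985). For Ctsk it was Col1a1 (0.948), a chain of type I collagen, and then the membrane-bound matrix metalloproteinase Mmp14 (0.936). For Ctsd it was Tspan4 (0.976) and then Emilin1 (0.969). For Ctsc it was Hm13 (0.969) and then the acute-phase protein haptoglobin, Hp (0.965). For Ctsh it was Smap2 (0.971) and then Ncf4 (0.968), a subunit of the phagocyte oxidase. The nearest genes of Ctsb (C1qtnf7, 0.927), Ctse (Polr1h, 0.924) and Ctss (Zfp513, 0.900) had lower r.

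The other genes of the lysosome were read from lists of known members. Over all genes, 11.4%, 14.7%, 14.7% and 6.40% were called higher than control on days 2, 5, 7 and 14. On day 14 against day 7, 4.28% of all genes were called lower. The 8.82% of other hydrolases called higher on day 14 was near the share of all genes. Among other lysosomal hydrolases, 6, 15, 20 and 3 of the 34 measured were higher than control on days 2, 5, 7 and 14, and 6 were lower on day 14 than on day 7. The serine carboxypeptidase Scpep1 rose by 1.64 ± 0.17 log2 on day 7 (limma, adjusted p = 1.01e-05) and the acid phosphatase Acp2 by 0.62 ± 0.12 (adjusted p = 0.00129). The count on day 7 was 13 without day 7 replicate 1, and that between day 14 and day 7 was 0 without day 7 replicate 3 or day 14 replicate 2 or 3. Of 17 lysosomal membrane proteins, 6, 6, 7 and 2 were higher on the 4 days, led by Gpnmb, a glycoprotein of stressed phagocytes (4.17 ± 0.37 log2 on day 7, adjusted p = 3.01e-06). Cd68 rose by 3.79 ± 0.38 on that day (adjusted p = 8.10e-06). On day 14 against day 7, 2 of this list were lower, Gpnmb (-2.98 log2) and Cd68 (-2.62), and 1 was higher.

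In the genes that sort enzymes to the lysosome, 5, 5, 6 and 3 of 16 were higher on the 4 days. Igf2r, the large mannose 6-phosphate receptor, rose by 1.00 ± 0.10 log2 on day 7 (limma, adjusted p = 9.54e-06), and Grn, the progranulin gene, by 1.35 ± 0.16 (adjusted p = 3.07e-05). Of the vacuolar proton pump, which acidifies the lysosome, 3, 7, 6 and 2 of 17 subunits were higher. Tcirg1, its a3 subunit, rose by 1.28 ± 0.21 on day 7 (adjusted p = 3.42e-04) and differed by -1.20 ± 0.20 on day 14 against day 7 (adjusted p = 0.00322). Of 11 regulators of lysosomal genes, 3, 4, 4 and 0 were higher (limma; 3 on day 14 had an unadjusted p under 0.05). Tfec, a relative of TFEB made in macrophages, rose by 2.42 ± 0.27 on day 7 (adjusted p = 1.56e-05) and Cebpb, a factor of myeloid differentiation and acute-phase responses, by 3.02 ± 0.33 (adjusted p = 1.41e-05). The day 7 count of this list was 2 without day 7 replicate 1.

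**Figure D5:**
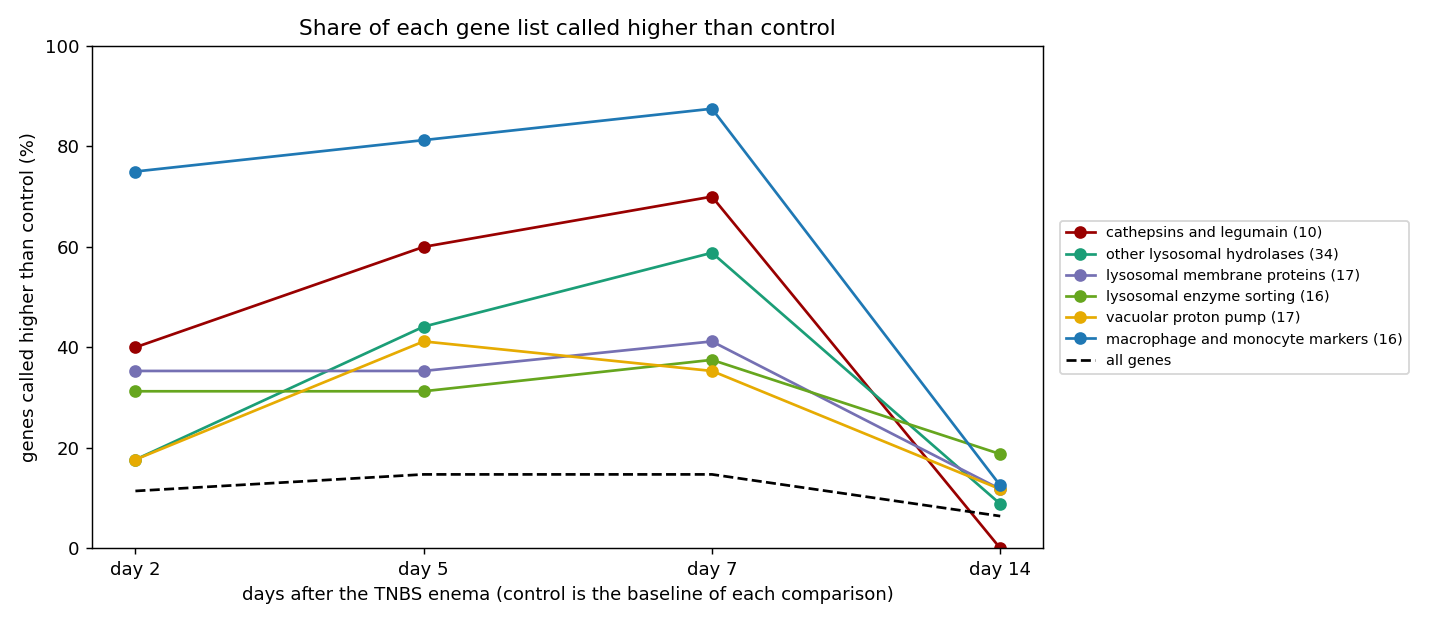
Share of the measured genes of each list called higher than saline control (vertical axis, percent) on days 2, 5, 7 and 14, with the number measured in brackets and the share of all genes as a dashed line. The cathepsins and legumain go through 4, 6, 7 and 0 of 10, and the macrophage markers through 12, 13, 14 and 2 of 16.

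The genes that act beside the cathepsins were counted in the same way, against 11.4%, 14.7%, 14.7% and 6.40% of all genes higher on days 2, 5, 7 and 14. Among 8 other cathepsins measured, 1, 3, 2 and 0 were higher on days 2, 5, 7 and 14 (limma; 2 on day 14 had an unadjusted p under 0.05), the day 2 share of 12.5% being near that of all genes. Ctsa, the protective protein of lysosomal sialidase, rose by 0.69 ± 0.12 log2 on day 7 (adjusted p = 7.11e-04) and Ctsf by 1.12 ± 0.24 (adjusted p = 0.00264). Of 11 cystatins and other inhibitors, 2, 3, 3 and 0 were higher (4 on day 14 had an unadjusted p under 0.05). Cst7, the leukocyte cystatin that enters lysosomes, rose by 2.23 ± 0.36 on day 7 (adjusted p = 3.64e-04). Cst3, the main secreted cystatin, differed by -0.28 ± 0.14 and was not called (adjusted p = 0.147). The day 7 count of the inhibitors was 1 without day 7 replicate 1.

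Among 12 measured proteases that cathepsin C activates, 0, 2, 1 and 1 were higher (limma; 5 on day 2 had an unadjusted p under 0.05 in either direction), and 1 was lower on each of days 2, 5 and 7. The shares higher, 0%, 16.7%, 8.33% and 8.33%, were near or below those of all genes. Of the 18 listed, Elane, Prtn3, Ctsg, Gzmc, Mcpt2 and Prss34 had no single-symbol probe set. The neutrophil proteases Elane, Prtn3 and Ctsg were thus not measured, and these counts do not speak for them. The lower gene was the mast cell protease Mcpt1, at -2.56 ± 0.61, -2.16 ± 0.61 and -2.03 ± 0.61 log2 (adjusted p = 0.00885, 0.0162 and 0.0210). Its day 7 call was lost on at least 1 scale without control replicate 2, 4, 5 or 6 or day 7 replicate 1 or 2 (adjusted p after quantile normalization 0.0288 to 0.105). Of 9 genes of class II loading, the pathway in which cathepsin S and legumain act, 1, 5, 5 and 1 were higher. Ifi30, the lysosomal thiol reductase, rose by 2.11 ± 0.18 on day 7 (adjusted p = 1.99e-06) and was still 1.67 ± 0.18 higher on day 14 (adjusted p = 3.16e-05). The day 7 count of this list was 2 without day 7 replicate 1 or 3.

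As with the 10 genes, more macrophage, neutrophil and fibroblast markers were called higher on days 5 and 7 than on day 14. The dendritic cell and B cell markers had another course, with median changes of -0.01, 0.05 and 0.48 log2 on days 5, 7 and 14. The part of these cells in the results was not tested. Over all genes, 11.4%, 14.7%, 14.7% and 6.40% were called higher on days 2, 5, 7 and 14. Of 16 macrophage and monocyte markers, 12, 13, 14 and 2 were higher than control on days 2, 5, 7 and 14, and 11 were lower on day 14 than on day 7 (7 without day 14 replicate 3). Their mean level, as the log2 difference from the control mean, was 0.60 to 1.87 in the day 2 arrays, 1.42 to 2.57 on day 5, 2.10 to 2.23 on day 7, 0.05 to 0.66 on day 14 and -0.15 to 0.06 in control. Clec7a, the beta-glucan receptor of phagocytes, rose by 4.14 ± 0.36 log2 on day 7 (limma, adjusted p = 2.70e-06). Of 10 neutrophil markers, 6, 7, 8 and 2 were higher and 7 were lower on day 14 than on day 7. Their mean level was 1.33 to 3.21 on day 2, 2.61 to 3.91 on day 5, 3.17 to 4.26 on day 7, 0.54 to 1.12 on day 14 and -0.11 to 0.08 in control. The list holds Selp, the P-selectin of platelets and endothelium, so its count and mean are not of neutrophil genes alone.

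Of 11 fibroblast markers, 1, 7, 8 and 0 were higher than control (limma; 2 on day 14 had an unadjusted p under 0.05), 1 was lower than control on day 5, and 7 were lower on day 14 than on day 7 (2 without day 14 replicate 2). Their mean level was -0.15 to 0.67 on day 2, 0.43 to 1.14 on day 5, 1.14 to 1.33 on day 7, -0.16 to 0.49 on day 14 and -0.18 to 0.19 in control. The 9.09% of fibroblast markers called higher on day 2 was below the 11.4% of all genes. Of 8 osteoclast markers listed, 4 were measured, and 1, 1, 2 and 1 were higher, Mmp9 among them at 2.99 ± 0.51 log2 on day 7 (adjusted p = 5.36e-04). Mmp9 is also on the neutrophil list and Acp5 on that of other lysosomal hydrolases, so these lists are not independent. The median change of the 4 was 0.30 log2 on day 7. The day 7 count was 1 without control replicate 1, 3, 4 or 5 or any of the 3 day 7 arrays. Their mean level was 0.19 to 0.98 on day 2, 0.48 to 0.90 on day 5, 0.61 to 1.03 on day 7, 0.27 to 0.58 on day 14 and -0.06 to 0.03 in control. Of 6 dendritic cell and B cell markers, 0, 2, 1 and 1 were higher (2 on day 2 had an unadjusted p under 0.05). Their mean level was -0.33 to 2.09 on day 2, 0.06 to 0.78 on day 5, 0.08 to 1.17 on day 7, 0.66 to 1.75 on day 14 and -0.52 to 1.27 in control. The 16.7% of dendritic cell and B cell markers called higher on day 7 was near the 14.7% of all genes.

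Most markers of the resident tissue were not called, under a rule that leaves little room for falls. Over all genes, 0.724%, 1.43%, 1.53% and 0.176% were called lower than control on days 2, 5, 7 and 14. In lists of 15 and 10 markers a single marker called lower already exceeds these shares, so exceeding them says nothing about either list. Of 15 colon epithelial markers, 1, 1 and 2 were lower than control on days 2, 5 and 7 and 1 was higher on day 5. The 1 higher was 6.67% of the list, below the 14.7% of all genes called higher on that day. The day 7 count was 0 without day 7 replicate 1. Their mean level was -0.60 to 0.17 on day 2, -0.69 to 0.22 on day 5, -1.02 to -0.09 on day 7, 0.20 to 0.35 on day 14 and -0.14 to 0.12 in control. Of 10 smooth muscle markers, 2, 3, 1 and 2 were lower on the 4 days, and 2 on day 7 without day 7 replicate 1. Their mean level was -0.93 to 0.23 on day 2, -1.08 to -0.39 on day 5, -0.50 to -0.002 on day 7, -0.62 to -0.21 on day 14 and -0.17 to 0.23 in control. After quantile normalization all arrays of days 5 and 14 were below all control arrays in this mean. As deposited they overlapped control, at 9.39 to 10.18 on day 5 and 9.98 to 10.43 on day 14, against 9.96 to 10.42.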

How the data were processed

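Full-thickness rat colon was read on Affymetrix Rat Genome 230 2.0 arrays, 1 per sample, in 12 TNBS samples and 6 saline controls. The authors normalized the arrays with the Bioconductor package affyPLM, per the labels, and deposited values that range like log2 signals, from 2.34 to 14.17, and were used as log2. Package version, background method and log base were not given in the sources used here. Replicates are the labels' separate samples of a group, and p-values measure the spread between them. The highest correlation between 2 arrays was 0.992.

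After removal of 57 control probe sets, 31042 remained. Probe sets were named from the platform annotation. limma 3.58.1 in R 4.3.3 was fitted to all 18 arrays with 1 coefficient per group, and p-values were Benjamini-Hochberg adjusted over all 31042 probe sets. Against control, sizes come from quantile-normalised values and a call needs both scales. Quantile normalization would remove a change shared by most genes. Exact permutation tests were used for differences between 2 probe sets within an array, and were added after the data were seen. The fit was tested on simulated data.

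Alternatives were other scales, filters on dim probe sets, trend and robust empirical Bayes, array weights, the 2 groups alone, replicate number as a block, other rules for genes with several probe sets, a stricter threshold and leaving out each array. The stricter threshold and the other rules for genes with several probe sets were applied to counts of genes, not to the tallies of single genes. The genes named from lists rank first by adjusted p in the F test among TNBS days, up to 3 per pathway list and 2 per cell type list, and some of these are left unnamed. The genes most like each member are the highest in Pearson r over the 12 TNBS arrays. The members and lists were chosen with earlier results of these data known. Of the 259 listed symbols 214 have a single-symbol probe set. Shared replicate numbers were checked by the correlation of deviations from group means: day 14 with control had all 3 over 0.1 (0.29 to 0.34), and no other pair of groups did. The number of arrays limits the precision.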

Additional observations from a re-analysis of the deposited data

Results flagged for a closer look

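Among the 10 genes, Ctsc in 1 control array stood apart from its group: control replicate 5 had a quantile-normalised log2 signal of 9.19, against 8.65 to 8.84 in the other 5 control arrays. The gap to the nearest array was 0.65 of the whole range of the group. Chance flags about 1 in 20 groups, and 10 control groups were looked at, with 1 standing apart. Without that array Ctsc was still called on days 5 and 7.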

How the results depend on the processing

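Of the 23 called differences of single genes, 362 of 413 alternatives kept the call, 51 lost it and 0 turned its direction. Lgmn, Ctsz and Ctsd on days 2, 5 and 7, Ctsk on days 5 and 7 and Ctsl on day 7 were called under all 19 alternatives each. These tallies use the brightest probe set of each gene and leave out the stricter threshold. Where every probe set of a gene had to pass, Lgmn was called in no comparison, as its second probe set was called in none. Of 52 called differences of named list genes, 63 of 893 alternatives lost the call and 0 turned it.

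The number of the 10 genes called moved most on day 14 against control, where it was 0 on both scales together. It was 6 as deposited only (all higher), 1 after quantile normalization only (Ctsb, lower), 4 with median centring only (Ctsk higher; Ctsb, Ctsh and Ctss lower), 1 without the dimmest 50% or 25% of probe sets, 3 with array weights and 3 with only the 2 groups in the fit, these last all higher. On day 2 it was 4, and 8 as deposited only. Between day 14 and day 7 it was 6, and 1 at an adjusted p under 0.01. In the F test it was 3, then 5 with array weights, 0 at an adjusted p under 0.01, 1 where every probe set of a gene had to pass and 0 with only the 12 TNBS arrays. Leaving out each array in turn gave 3 to 6 on day 2, 4 to 7 on day 5, 5 to 7 on day 7 and 0 to 1 on day 14 against control, 0 for days 5 against 2 and 7 against 5, 2 to 6 for day 14 against day 7 and 0 to 5 in the F test. The cause of these moves was not tested.

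Same-numbered arrays of different groups deviated together in 1 of 10 pairs of groups, day 14 with control (r 0.29 to 0.34). In the other 9 at least 1 of the 3 r was 0.1 or less (30 r in all, -0.31 to 0.47, with 14 over 0.1). For day 2 with day 5 they were 0.47, 0.42 and -0.22. With only 3 r per pair of groups, whether the numbers pair the rats cannot be told. With the replicate block the counts were 3, 4, 6 and 0 on days 2, 5, 7 and 14 against control, 4 for day 14 against day 7 and 0 in the F test. The calls not made with it were Ctsk on day 2, Ctsc and Ctsl on day 5, Ctsh on day 7, Ctsb and Ctsc on day 14 against day 7, and all 3 of the F test. On day 14 against control, where the numbers deviate together, it changed no call of the 10 genes.

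Differences that turned sign were not called. As deposited, Ctsb was 0.126 and 0.0804 on days 2 and 5, Ctsc 0.214, Ctsh 0.393 and Ctsl 0.0817 on day 14, and Ctss 0.0926, 0.164 and 0.228 on days 2, 7 and 14. With median centring, Ctsb was -0.422 and Ctse -0.0928 on day 7, Ctsh -0.315 and -0.0390 on days 2 and 5, and Ctss -0.429 on day 5. With the replicate block Ctsb was -0.0384 on day 7, and with array weights Ctss was -0.0538 between day 14 and day 7. Leaving out 1 array gave -0.0184 to 0.0569 for Ctsb and -0.0403 to 0.255 for Ctse on day 7, -0.0676 to 0.205 for Ctsh on day 2, -0.0583 to 0.260 for Ctss on day 5 and -0.0400 to 0.221 for Ctss between day 14 and day 7.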
